A study of Mus musculus with 15 samples.

Results

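The genes described here are 9 markers of mouse pluripotent cells: Dppa2, Dppa3, Dppa4 and Dppa5a, which are developmental pluripotency associated genes, together with Tcl1, Utf1, Fbxo15, Gdf3 and Sall4. They were taken by symbol, from a set drawn up with earlier results of these data known, and all 9 were found among the 34372 genes of the deposited expression table. The study sequenced polyadenylated RNA from 15 mouse libraries, 9 of embryonic germ cells (EGC, pluripotent lines grown from the primordial germ cells of an embryo) and 6 of embryonic stem cells (ESC, lines grown from the early embryo), which the series describes as genetically matched. Its title is about DUSP9, an X-linked phosphatase, and the low DNA methylation of female pluripotent cells, so the number of X chromosomes and the origin of the line frame the comparisons. The header of the table gives 6 labels: XX ESC (3 libraries), XY ESC (3 libraries), E11.5 XX EGC (2 libraries), E11.5 XY EGC (3 libraries), E11.5 XO EGC (1 library) and E12.5 XY EGC (3 libraries), where E11.5 and E12.5 are the embryonic days of the germ cells.

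All 15 cultures were derived with 2i and LIF, moved to serum and LIF on mouse embryonic fibroblast feeders, and sorted for the surface antigen SSEA1 at passage 6 before RNA was taken. No label names an allele, a transgene or a strain, and none says whether libraries under 1 header label were separate lines or clones of 1 line. The p-values below therefore measure the spread between these libraries, which may be technical. Effects of the line cannot be told apart from those of karyotype or stage.

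Pluripotent mouse cells are held in their state by a small circuit of transcription factors around OCT4, SOX2 and NANOG, and the genes described here are among the best known markers and effectors of that state. DPPA2 and DPPA4 are small chromatin proteins with a SAP domain that bind each other and mark promoters of germline and early embryonic genes. DPPA3, also called STELLA, is deposited in the egg and keeps the maintenance methylation factor UHRF1 away from chromatin, and DPPA5A is a KH-domain RNA-binding protein. TCL1 is a coactivator of the kinase AKT, GDF3 is a secreted ligand of the TGF-beta superfamily, and FBXO15 is an F-box protein whose gene was used as a reporter of reprogramming. UTF1 is a chromatin-bound protein and SALL4 a zinc-finger factor that recruits the NuRD complex.

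The promoters of Tcl1 and Utf1, the 2 genes for which a sequence was at hand, are shown because the study concerns DNA methylation. CG pairs are written in capitals, and methylation of these promoters was not tested. In XX ESC Tcl1 was higher and Utf1 lower than in XY ESC. The table of 32851 RefSeq promoter windows used here (GRCm38.p6 build) holds 2 of the 9 genes, and each stretch printed here ends just before the gene's start in the GENCODE M21 annotation.
Utf1, chr7:139943606-139943788, plus strand: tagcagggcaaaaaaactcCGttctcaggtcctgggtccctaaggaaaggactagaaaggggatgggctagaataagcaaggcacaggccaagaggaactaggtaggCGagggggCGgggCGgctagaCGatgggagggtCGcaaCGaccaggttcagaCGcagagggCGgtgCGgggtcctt
Tcl1, chr12:105222794-105222987, minus strand: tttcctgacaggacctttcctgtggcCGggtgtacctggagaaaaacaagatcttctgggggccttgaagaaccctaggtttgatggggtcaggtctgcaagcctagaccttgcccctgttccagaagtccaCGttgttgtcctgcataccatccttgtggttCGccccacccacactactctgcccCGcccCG
Over the full 250 bases before the RefSeq start, Utf1 held 14 CG pairs and Tcl1 held 7, against a median of 6 over all windows. Windows with at least as many were 29.4% of the total for Utf1 and 46.3% for Tcl1. Neither window held the octamer ATGCAAAT bound by OCT4, which is in 1.6% of windows on either strand, nor the SOX core CATTGT, which is in 10.7%.

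Levels are given in TPM (transcript abundance scaled to a fixed total), which allow for gene length and sum to 1000000 in each library, so the read depth behind them is unknown and no counting interval can be given. Differences are on the log2(TPM + 1) scale from limma, with standard errors (SE), and a gene was called where its p, adjusted by Benjamini-Hochberg over all genes tested, was under 0.05. Between 12498 and 13041 genes reached 1 TPM in a library, and all 22 genes of a naive pluripotency list reached it on average under every label, with a summed level of 4196 to 6543 TPM. Fibroblast markers, which feeder cells would bring, summed to 245.0 to 427.2 TPM. Most of that sum was Sparc, at 214.1 to 287.4 TPM in EGC and 204.4 to 299.5 TPM in ESC. The sum is therefore no measure of feeder content. Col1a1 had at most 12.81 TPM in EGC and 2.622 TPM in ESC. Markers of primitive endoderm summed to 26.9 to 53.4 TPM and those of trophoblast to 39.4 to 277.2 TPM. In bulk RNA, fewer cells of a type and less RNA per cell cannot be told apart.

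All 9 genes were expressed in every library and passed the filter on low values. Dppa5a was by far the most abundant, at 4847 to 11401 TPM, and ranked between 3rd and 22nd among all genes of each library. Utf1 followed at 202.4 to 375.9 TPM, then Fbxo15 at 120.6 to 280.3 TPM and Tcl1 at 94.7 to 257.5 TPM. Dppa4 had 82.8 to 128.0 TPM, Sall4 62.7 to 104.8 TPM, Dppa2 36.5 to 130.4 TPM, Dppa3 23.2 to 104.9 TPM and Gdf3 35.8 to 66.0 TPM.

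**Figure D1:**
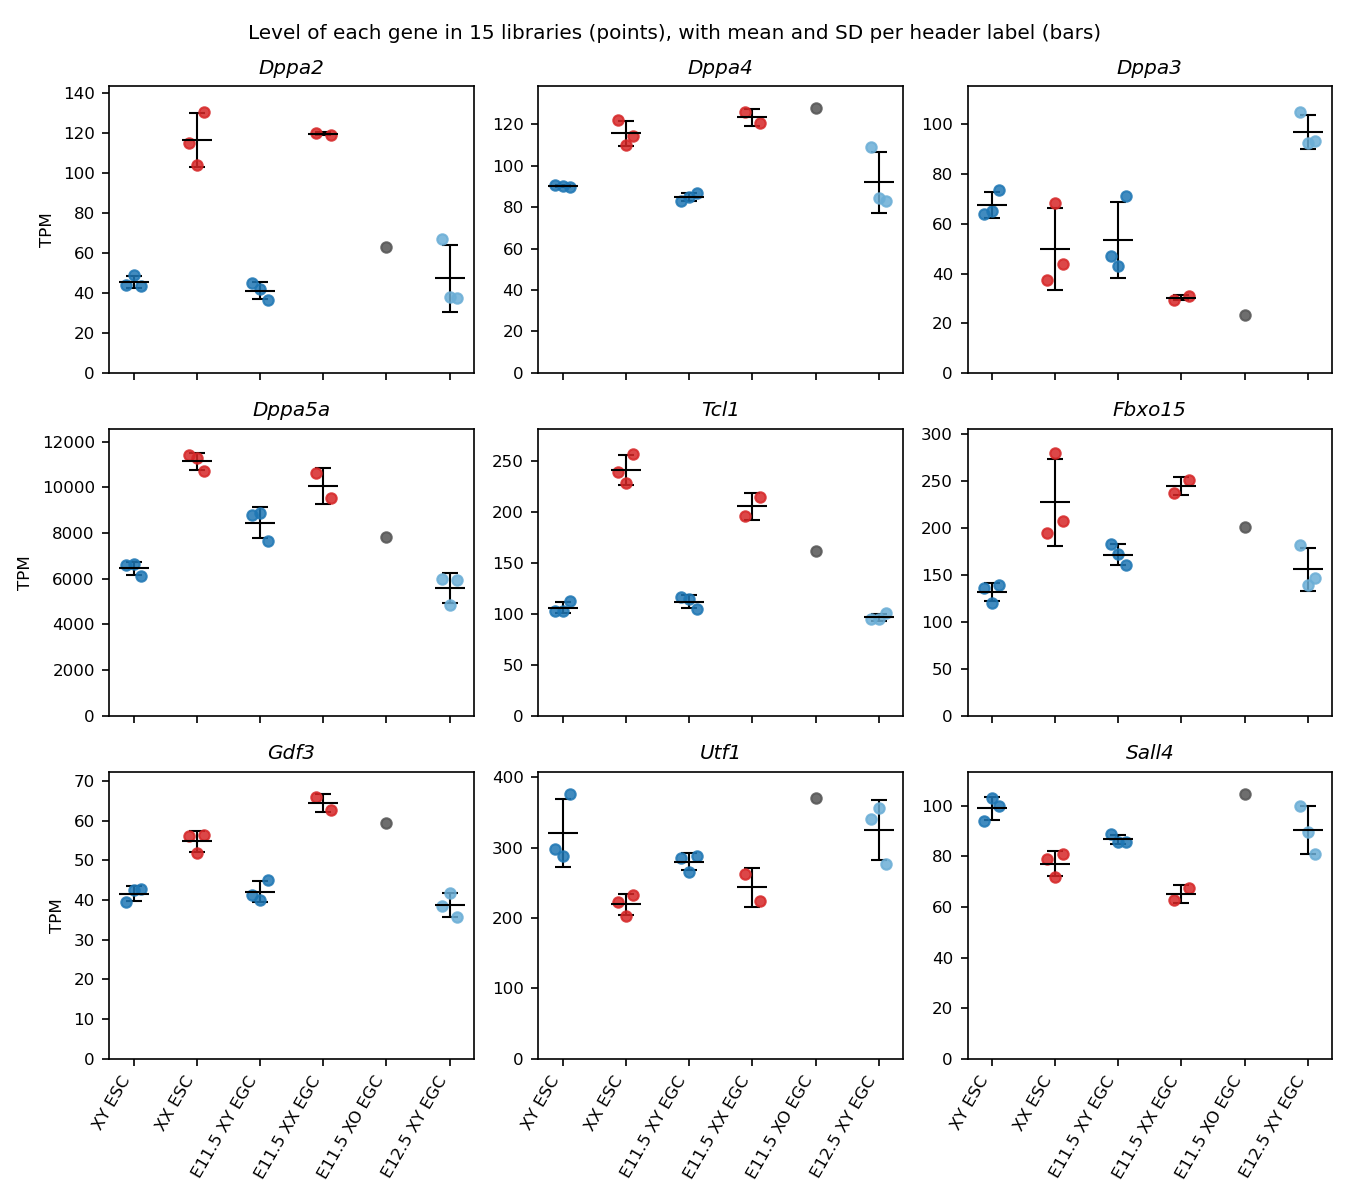
Level of each gene in TPM (vertical axes, each from 0) in the 15 libraries, grouped by header label; points are libraries, and bars give the mean and SD of labels with more than 1 library. For Dppa2, Dppa4, Tcl1, Fbxo15 and Gdf3 the XX points lie above the XY points of the same cell type, for Utf1 and Sall4 below them, and Dppa3 peaks in E12.5 XY EGC at 92.5 to 104.9 TPM.

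EGC and ESC taken as wholes did not differ in any of the 9 genes past the threshold. Tcl1 averaged 133.3 ± 46.0 TPM in EGC (SD, n = 9) and 173.9 ± 74.9 TPM in ESC (n = 6), and Dppa2 63.1 ± 33.9 and 80.9 ± 39.9 TPM. These were the largest differences, -0.33 ± 0.26 (SE, adjusted p = 0.688) and -0.35 ± 0.33 (adjusted p = 0.739), and for all 9 genes the ranges of EGC and ESC overlapped. Of the 9 genes 0 were called and 0 had an unadjusted p under 0.05 by limma. Of 12909 genes tested, 0.0232% were called higher and 0.0232% lower, and 1164 had an unadjusted p under 0.05. The XX libraries are 2 of the 9 in EGC and 3 of the 6 in ESC, and with the number of X chromosomes as a factor the count remained 0.

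XX and XY cells of the same type differed in most of these genes. These comparisons came from a separate fit with 1 mean per label, so their counts cannot be set against those of EGC and ESC. In the pooled fit, differences of karyotype and stage add to the spread. The SE of Dppa2 was 0.33 there and 0.17 for XX against XY ESC, and that of Tcl1 0.26 and 0.07. In ESC, Dppa2, Tcl1, Dppa5a, Fbxo15, Gdf3 and Dppa4 were higher in XX than in XY libraries, and Utf1 and Sall4 lower, so that 8 of the 9 were called. In E11.5 EGC, Dppa2, Tcl1, Gdf3, Dppa4 and Fbxo15 were higher in XX and Dppa3 and Sall4 lower, so that 7 were called. The backgrounds are wide: among 13879 genes, 27.3% were called higher and 19.3% lower in XX ESC, and 26.2% higher and 23.4% lower in XX EGC. The median difference of the 9 genes was 0.39 in ESC and 0.51 in EGC, beside 0.05 and 0.02 over all genes tested.

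**Figure D2:**
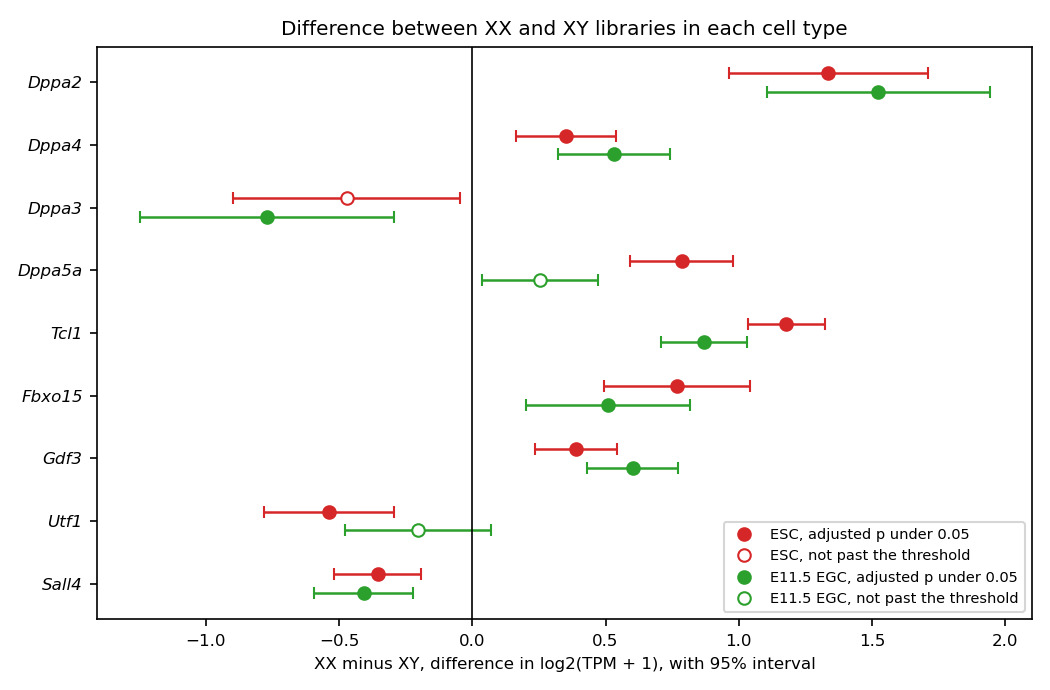
XX minus XY difference of each gene in log2(TPM + 1) (horizontal axis), with its 95% interval, in ESC (red) and in E11.5 EGC (green); filled points passed an adjusted p of 0.05. The points of Dppa2 lie farthest to the right, at 1.34 and 1.52, and every gene has its points on the same side of 0.

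Dppa2 and Dppa4 lie beside each other on chromosome 16, at chr16:48303908-48319723 and chr16:48283733-48294237 on the plus strand, 9.67 kb apart. Dppa2 read 115.1, 103.8 and 130.4 TPM in the XX ESC libraries and 43.8, 48.8 and 43.6 TPM in XY ESC. Its E11.5 EGC libraries read 120.2 and 119.2 TPM for XX and 45.2, 41.8 and 36.5 TPM for XY. No XY library of any stage came above 66.8 TPM, and no XX library below 103.8 TPM. The mean level in XX was 2.56 times that in XY for ESC and 2.91 times for EGC. The differences were 1.34 ± 0.17 (SE, adjusted p = 3.87e-05) and 1.52 ± 0.19 (adjusted p = 3.78e-05), higher in 3 of 3 and 2 of 2 XX libraries.

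Dppa4 moved the same way by less. It read 121.9, 110.2 and 114.4 TPM in XX ESC against 90.7, 90.2 and 89.6 TPM in XY ESC. The E11.5 EGC values were 126.0 and 120.5 TPM for XX against 83.1, 84.8 and 86.8 TPM for XY. The groups did not overlap in either cell type. The differences were 0.35 ± 0.09 (adjusted p = 0.00484) in ESC and 0.53 ± 0.10 (adjusted p = 0.000614) in EGC. The partners therefore differed in proportion as well as in level. The ratio of Dppa2 to Dppa4 TPM was 0.483 to 0.541 in XY ESC and 0.421 to 0.544 in E11.5 XY EGC, but 0.942 to 1.14 in XX ESC and 0.955 to 0.990 in XX EGC. Morc1, the germline ATPase gene next along the chromosome, was also higher in XX, by 1.49 ± 0.09 in ESC (adjusted p = 7.8e-08) and 1.12 ± 0.11 in EGC (adjusted p = 3.43e-06).

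Few of the early embryonic genes that DPPA2 and DPPA4 are known to activate could be tested. Of 23 genes of a 2-cell-like list, 13 were among the genes measured, and 6 of those passed the filter on low values. Of the 6, 3 were higher in XX ESC (Zscan4d, Zscan4f and Tmem92) and 1 in XX EGC (Zscan4f), beside 27.3% and 26.2% of all genes. Zscan4f had 10.6 TPM in XX ESC (SD 5.56 TPM) against 3.44 TPM in XY ESC, a difference of 1.28 (adjusted p = 0.0309). It was also higher at E12.5 than at E11.5 in XY EGC (8.26 against 2.46 TPM, adjusted p = 0.0484). Dppa2 (0.15) and Dppa4 (0.10) did not pass in that comparison. Zscan4 copies are nearly identical, so reads could be split between them. Of 20 germline genes known to be silenced by promoter methylation, 15 were higher and 3 lower in XX ESC (median 1.28), and 14 were higher and 5 lower in XX EGC (median 0.88). Sycp1, which builds the meiotic synaptonemal complex, had 48.1 TPM in XX ESC and 7.96 TPM in XY ESC.

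**Figure D3:**
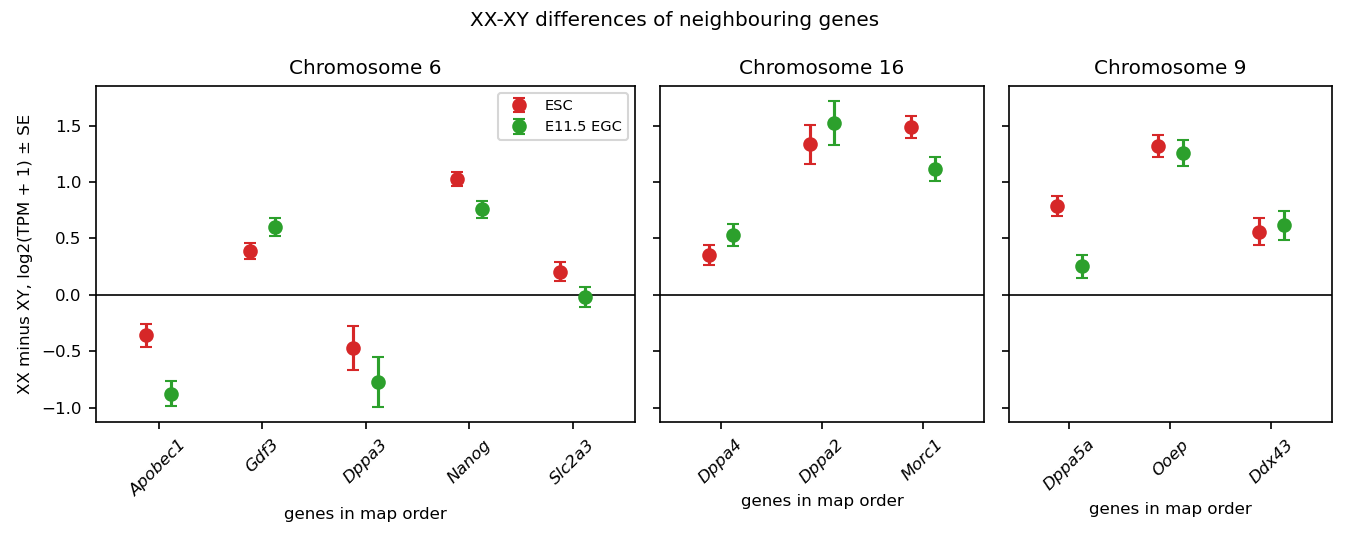
XX minus XY difference in log2(TPM + 1), with its SE, of the genes around Gdf3 and Dppa3 (chromosome 6), Dppa4 and Dppa2 (chromosome 16) and Dppa5a (chromosome 9), in map order, for ESC (red) and E11.5 EGC (green). The chromosome 16 and chromosome 9 genes all have positive differences, while on chromosome 6 Apobec1 and Dppa3 are below 0 and Gdf3 and Nanog above it.

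Tcl1 (chr12:105216750-105222793, minus strand), whose promoter is printed above, had the narrowest errors of the set. It read 239.2, 228.1 and 257.5 TPM in XX ESC and 102.8, 103.2 and 112.5 TPM in XY ESC. In E11.5 EGC it read 196.3 and 215.3 TPM for XX against 116.9, 114.2 and 105.2 TPM for XY. Every XX library exceeded every XY library, and the mean in XX was 2.28 times that in XY for ESC and 1.84 times for EGC. Its rank by p was 79 of 13879 genes in ESC and 238 in EGC. The XX-XY difference was smaller in EGC than in ESC by 0.31 ± 0.10, which did not pass (adjusted p = 0.0536).

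The relatives Tcl1b1 to Tcl1b5 lie beside Tcl1 on chromosome 12 and stayed at or under 0.758 TPM in every library, so 8 of 13 genes of the TCL1 and AKT list could be tested. In XX ESC 4 of those were higher and 0 lower (median 0.18), among them Pdpk1, the kinase that activates AKT (26.1 against 16.8 TPM, adjusted p = 0.000658), and Mtcp1, an X-linked TCL1 relative (30.5 against 17.8 TPM, adjusted p = 0.00146). In XX EGC 2 were higher and 3 lower (median -0.05). Rictor, a subunit of the mTORC2 kinase complex, had 7.76 TPM in XX EGC and 16.1 TPM in E11.5 XY EGC, a difference of -0.96 (adjusted p = 8.16e-05).

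Dppa5a (chr9:78367052-78368177, minus strand) was the gene whose XX-XY difference changed most between cell types. Its levels were 11401, 11297 and 10697 TPM in XX ESC and 6597, 6656 and 6129.8 TPM in XY ESC. In E11.5 EGC they were 10613 and 9516 TPM for XX and 8809.7, 8867 and 7670.2 TPM for XY. The XX and XY ranges did not overlap in either cell type, and the distance between them was smaller in EGC, where the XY libraries were high. The XX-XY difference was 0.79 ± 0.09 in ESC (adjusted p = 1.43e-05) and 0.25 ± 0.10 in EGC, which did not pass (adjusted p = 0.0516). The test of the change itself gave -0.53 ± 0.14 (adjusted p = 0.0215), the only one of the 9 genes past the threshold, beside 6.08% of all genes called higher and 9.51% called lower in that test. It did not pass without the library EGC 5 (adjusted p = 0.0546), EGC 9 (0.0862) or ESC 6 (0.0532), nor after quantile scaling, where the change was -0.24 (adjusted p = 0.481).

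Dppa5b, annotated as a pseudogene on the same chromosome, was listed at 0.892 TPM or less. The treatment of reads that match several places is not given in the sources used here. The gene next to Dppa5a, Ooep, encodes a KH-domain protein of the egg's subcortical maternal complex and was higher in XX by 1.32 ± 0.10 in ESC (adjusted p = 3.82e-07) and 1.26 ± 0.11 in EGC (adjusted p = 2.19e-06). Ddx43, an RNA helicase gene further along, was higher by 0.56 and 0.62 (adjusted p = 0.00157 and 0.00174). A list drawn up around DPPA and KH-domain genes, but not limited to those families, held 8 genes. Of these 7 were measured and 2 could be tested, Ooep and Tdrd12. Ooep was higher in XX ESC, and both were higher in XX EGC. Dppa1 was at 0.121 TPM or less.

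Dppa3 (chr6:122626410-122630272, plus strand) and Gdf3 (chr6:122605403-122610087, minus strand) lie 16.3 kb apart near Nanog, and their XX-XY differences had opposite signs. Gdf3 read 56.2, 51.8 and 56.4 TPM in XX ESC against 39.4, 42.6 and 42.7 TPM in XY ESC. Among E11.5 EGC libraries it read 66.0 and 62.7 TPM for XX against 41.3, 40.1 and 44.98 TPM for XY. The groups did not overlap, and the differences were 0.39 ± 0.07 in ESC (adjusted p = 0.000612) and 0.60 ± 0.08 in EGC (adjusted p = 5.31e-05).

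Dppa3 read 37.4, 68.4 and 43.8 TPM in XX ESC and 63.9, 65.0 and 73.5 TPM in XY ESC. In E11.5 EGC it read 29.5 and 31.02 TPM for XX and 46.9, 42.9 and 71.0 TPM for XY. The ESC ranges overlapped because of 1 XX library at 68.4 TPM, while both XX EGC libraries lay below every XY library. The difference was -0.47 ± 0.20 in ESC, which did not pass (adjusted p = 0.0661), and -0.77 ± 0.22 in EGC (adjusted p = 0.0112). Without that XX library (ESC 2) the ESC difference was -0.72 (adjusted p = 0.0042), and without EGC 7 the EGC difference was -0.74 and did not pass (adjusted p = 0.0649). The ratio of Dppa3 to Gdf3 TPM was 0.447 to 0.494 in XX EGC and 1.07 to 1.58 in E11.5 XY EGC, and 0.666 to 1.32 in XX ESC and 1.53 to 1.72 in XY ESC. It was lowest in the XO library, at 0.391, and highest in E12.5 XY EGC, at 2.21 to 2.72.

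The summed level of trophoblast markers, though not each marker, ran with Dppa3 over the XX and XY labels. Their part in its differences was not tested. The XO library departed from this, with a sum of 57.2 TPM, above XX EGC, and 23.2 TPM of Dppa3, below XX EGC. Their summed level was 39.4 to 44.3 TPM in XX EGC, 103.1 to 114.0 TPM in E11.5 XY EGC, 51.9 to 104.8 TPM in XX ESC and 121.1 to 135.4 TPM in XY ESC. Within XX ESC the highest sum, 104.8 TPM, was in the library with 68.4 TPM of Dppa3. In the XY labels most of it was the keratin gene Krt18, which had 14.5 TPM in XX EGC and 70.9 TPM in E11.5 XY EGC. The defining trophoblast factors Cdx2 and Elf5 stayed at or under 0.367 and 0.462 TPM. Of 7 trophoblast markers tested, 3 were higher and 2 lower in XX ESC, and 3 higher and 3 lower in XX EGC.

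The genes around this pair were also split by sign in the XX-XY comparisons. Nanog had the sign of Gdf3 in both cell types and Apobec1 that of Dppa3. Nanog, a core pluripotency factor, was higher in XX by 1.03 ± 0.07 in ESC and 0.76 ± 0.07 in EGC. Apobec1, a cytidine deaminase gene on the other side of Gdf3, was lower in XX, at -0.36 ± 0.10 in ESC (adjusted p = 0.011) and -0.88 ± 0.11 in EGC (adjusted p = 4.28e-05). Slc2a3, a glucose transporter gene, had 0.21 and -0.02, neither past the threshold.

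Of 19 genes on the list of NODAL and GDF3 signalling, 18 could be tested. In XX ESC 4 were higher and 2 lower (median 0.09), beside 27.3% and 19.3% of all genes. In XX EGC 5 were higher and 3 lower (median -0.08), beside 26.2% and 23.4% of all genes. Lefty2, a secreted inhibitor of NODAL, stood at 93.8 TPM for XX and 36.3 TPM for XY in ESC, and at 118.1 and 22.6 TPM in E11.5 EGC. The signalling repressor gene Skil had 37.1 against 54.6 TPM and 28.1 against 58.8 TPM. All 4 of these differences passed. Of 13 genes of DNA methylation, among which UHRF1 is the known partner of DPPA3, 5 were higher and 2 lower in XX ESC (median 0.16), and 5 higher and 0 lower in XX EGC (median 0.19). Uhrf1 differed by -0.26 ± 0.07 in ESC (adjusted p = 0.00502) and by -0.08 ± 0.07 in EGC (adjusted p = 0.398). Dnmt3l, a cofactor of the de novo methyltransferases, was among those higher in both, with 317.9 against 151.1 TPM in ESC and 360.2 against 163.7 TPM in EGC.

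Fbxo15, on chromosome 18, read 194.8, 280.3 and 207.5 TPM in XX ESC against 136.0, 120.6 and 138.9 TPM in XY ESC. In E11.5 EGC it read 237.7 and 251.4 TPM for XX against 182.8, 172.1 and 160.4 TPM for XY. The ranges did not overlap, although the XX ESC libraries were spread widely (SD 46.1 TPM). The differences were 0.77 ± 0.13 in ESC (adjusted p = 0.000288) and 0.51 ± 0.14 in EGC (adjusted p = 0.00953). The latter did not pass without EGC 9 (0.47, adjusted p = 0.0653). F-box proteins bring substrates to the SCF ubiquitin ligase, and of 10 genes of that ligase 4 were higher and 1 lower in XX ESC (median 0.15), while 5 were higher and 0 lower in XX EGC (median 0.29). Btrc, another F-box gene, rose in both (14.3 against 10.03 TPM in ESC, 12.7 against 9.88 TPM in EGC).

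Utf1 (chr7:139943789-139945112, plus strand), whose promoter is also printed above, went the other way. It read 222.4, 202.4 and 232.9 TPM in XX ESC and 297.9, 287.7 and 375.9 TPM in XY ESC. The XX EGC libraries read 263.2 and 224.2 TPM and the E11.5 XY EGC libraries 285.5, 265.7 and 288.3 TPM. The ranges did not overlap, but in EGC the nearest XX and XY libraries, at 263.2 and 265.7 TPM, were almost level. The difference was -0.54 ± 0.11 in ESC (adjusted p = 0.00177) and -0.20 ± 0.13 in EGC, with a 95% interval of -0.48 to 0.07 (adjusted p = 0.203). Beside Tcl1, the contrast is plain in the ratio of Tcl1 to Utf1 TPM, which was 1.08 to 1.13 in XX ESC and 0.299 to 0.359 in XY ESC, and 0.746 to 0.960 in XX EGC and 0.365 to 0.430 in E11.5 XY EGC. Of 9 genes linked to UTF1 (Polycomb, decapping and Myc-Arf genes), 4 were higher and 0 lower in XX ESC (median 0.18), and 3 higher and 1 lower in XX EGC (median 0.10). Jarid2, a Polycomb cofactor gene, had 189.8 TPM in XX ESC and 93.3 TPM in XY ESC.

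Sall4 (chr2:168748332-168767943, minus strand) was lower in XX in both cell types. It read 79.0, 71.7 and 80.8 TPM in XX ESC and 93.8, 102.9 and 100.1 TPM in XY ESC. In E11.5 EGC it read 62.7 and 67.6 TPM for XX and 88.7, 85.7 and 85.8 TPM for XY. No XX library reached the lowest XY library of its type, and the differences were -0.36 ± 0.08 in ESC (adjusted p = 0.00198) and -0.41 ± 0.09 in EGC (adjusted p = 0.00161). Among 16 other SALL and NuRD genes, 5 were higher and 4 lower in XX ESC (median 0.04), and 6 higher and 3 lower in XX EGC (median 0.14). Rbbp7, an X-linked histone chaperone gene of NuRD, had 415.2 against 237.1 TPM in ESC and 477 against 257.8 TPM in EGC.

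Wider lists for pluripotent cells gave the setting of these differences. The counts below, and those of the lists above, stand beside the shares over all genes. These were 27.3% higher and 19.3% lower in XX ESC, and 26.2% higher and 23.4% lower in XX EGC. A named gene does not show that its list differed as a whole. Of 22 naive pluripotency genes, 14 were higher and 2 lower in XX ESC (median 0.38), and 10 higher and 5 lower in XX EGC (median 0.25). Of 13 formative and primed genes, 4 were higher and 2 lower in XX ESC, and 6 higher and 0 lower in XX EGC; Otx2, a formative factor, had 101.8 TPM in XX ESC and 25.1 TPM in XY ESC. Of 9 other targets of OCT4 and SOX2, 4 were higher and 0 lower in XX ESC, and 3 higher and 1 lower in XX EGC. Of 8 genes of primordial germ cell identity tested, 2 were higher and 2 lower in XX ESC and 3 higher and 3 lower in XX EGC. Of 14 fibroblast markers tested, 4 were higher and 2 lower in XX ESC and 3 higher and 0 lower in XX EGC, and of 6 of primitive endoderm, 3 were higher and 1 lower in XX ESC and 1 higher and 1 lower in XX EGC.

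The stage of the germ cells was compared in XY EGC, where E12.5 and E11.5 have 3 libraries each. Dppa3 was higher at E12.5, and Dppa5a and Tcl1 were lower. Of the 9 genes, 1 was called higher and 2 lower, beside 26.3% and 11.4% of all genes. Dppa3 read 104.9, 92.5 and 93.5 TPM at E12.5 and 46.9, 42.9 and 71.0 TPM at E11.5, with no overlap, a difference of 0.88 ± 0.20 (adjusted p = 0.0043). The summed trophoblast markers were 225.7 to 277.2 TPM at E12.5 against 103.1 to 114.0 TPM at E11.5, with 3 of 7 higher and 0 lower, and their part in the Dppa3 difference was not tested.

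Dppa5a read 5994, 4847 and 5942 TPM at E12.5, below each E11.5 library (7670.2 TPM or more), a difference of -0.60 ± 0.09 (adjusted p = 0.000393). Tcl1 read 94.8, 94.7 and 101.0 TPM at E12.5, also below each E11.5 library (105.2 TPM or more), a difference of -0.21 ± 0.07 (adjusted p = 0.0259). The Tcl1 call was lost on leaving out EGC 1, EGC 2, EGC 4 or EGC 5, with adjusted p between 0.0737 and 0.0937. In the other 6 genes the stages overlapped and did not differ past the threshold, with differences between -0.15 and 0.21. For Dppa2, 1 E12.5 library at 66.8 TPM stood above the others at 38.1 and 37.3 TPM, and the same library had the highest Dppa4 of its label, 109.1 TPM against 84.2 and 82.8 TPM. At E12.5, 5 of 8 germ cell identity genes were higher and 1 lower (median 0.41), and 4 of 13 DNA methylation genes were higher and 0 lower (median 0.24), beside a median of 0.10 over all genes.

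The origin of the line was then compared within a karyotype. These comparisons share libraries with those of karyotype and stage, so their values are not independent of them. Between E11.5 XY EGC and XY ESC, Dppa5a and Fbxo15 were higher in EGC, so that 2 genes were called higher and 0 lower, beside 12.2% and 13.4% of all genes. Dppa5a read 7670.2 to 8867 TPM in E11.5 XY EGC, above the highest XY ESC library at 6656 TPM, a difference of 0.38 ± 0.09 (adjusted p = 0.00863). Fbxo15 read 160.4 to 182.8 TPM against 120.6 to 138.9 TPM, a difference of 0.38 ± 0.13 (adjusted p = 0.0432).

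Fibroblast markers were also higher in E11.5 XY EGC than in XY ESC, and their part in these differences was not tested beyond the following values. Their summed level was 256.4 to 427.2 TPM in E11.5 XY EGC and 245.0 to 248.8 TPM in XY ESC, and 8 of 14 were higher and 1 lower. Sparc made up most of both sums, with means of 241.9 and 209.5 TPM. Between E11.5 XX EGC and XX ESC, 5 of 14 fibroblast markers were higher and 0 lower. Dppa5a (-0.15) and Fbxo15 (0.12) did not pass there. In the XY comparison, with the mean of the fibroblast markers as a covariate, neither gene passed (Dppa5a 0.34, adjusted p = 0.0803, and Fbxo15 0.30, adjusted p = 0.242). The Fbxo15 call was also lost on leaving out any one of EGC 4, 5, 6, 7 or 9 or of the XY ESC libraries (adjusted p between 0.0533 and 0.129), and the Dppa5a call after quantile scaling (0.28, adjusted p = 0.192).

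Between E12.5 XY EGC and XY ESC, 0 of the 9 genes were called, beside 3.19% of all genes higher and 0.166% lower, and 2 had an unadjusted p under 0.05 by limma, Dppa3 (0.52 ± 0.20, adjusted p = 0.147) and Dppa5a (-0.21 ± 0.09, adjusted p = 0.189). Between E11.5 XX EGC and XX ESC, 0 of the 9 were called, beside 4.09% higher and 8.44% lower. There 4 had an unadjusted p under 0.05 by limma: Dppa3 at -0.66 ± 0.22 (adjusted p = 0.0676), Tcl1 at -0.23 ± 0.07 (0.0596), Gdf3 at 0.23 ± 0.08 (0.0762) and Sall4 at -0.24 ± 0.09 (0.0825). The XX EGC libraries of Dppa3 (29.5 and 31.02 TPM) lay below all 3 XX ESC libraries (37.4 TPM or more), and those of Tcl1 below them as well (215.3 TPM at most against 228.1 TPM at least).

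The 5 labels that have replicates were also ordered by mean level, and the same values were then contrasted. Neighbouring labels differed past the threshold in 6 of 36 adjacent pairs, at most 1 for each gene. The share over all genes was not computed for these pairs. Contrasts differ widely in it: 3.19% higher and 0.166% lower between E12.5 XY EGC and XY ESC, 26.2% and 23.4% between E11.5 XX and XY EGC. The place of a called step depends in part on that share. For Dppa2, Dppa4, Tcl1, Fbxo15 and Gdf3 that step fell between the lower XX label and the highest XY label, with XX EGC and XX ESC not differing past the threshold above it. For Dppa2 the step was 1.32 ± 0.17 (adjusted p = 3.96e-05), from XX ESC to E12.5 XY EGC, and for Fbxo15 0.39 ± 0.13 (adjusted p = 0.0197), from XX ESC to E11.5 XY EGC. Dppa5a ran from XX ESC (11131.6 TPM) through XX EGC (10064.2 TPM) to E11.5 XY EGC (8449 TPM), XY ESC (6461 TPM) and E12.5 XY EGC (5594 TPM), and its one called step was between E11.5 XY EGC and XY ESC.

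Dppa3, Utf1 and Sall4 had no called step between neighbours. Dppa3 ran from E12.5 XY EGC (96.9 TPM) through XY ESC (67.5 TPM), E11.5 XY EGC (53.6 TPM) and XX ESC (49.9 TPM) to XX EGC (30.2 TPM). Utf1 ran from E12.5 XY EGC (324.7 TPM) and XY ESC (320.5 TPM) to XX ESC (219.2 TPM), with all XY labels above both XX labels, and Sall4 likewise from XY ESC (98.9 TPM) to XX EGC (65.2 TPM).

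The E11.5 XO EGC library has 1 X chromosome and no replicate, so it is given as values with no test. Its level lay between the E11.5 XY and XX ranges for 4 genes: Dppa2 (62.9 TPM), Tcl1 (161.5 TPM), Fbxo15 (201.3 TPM) and Gdf3 (59.4 TPM). It lay above both for Dppa4 (128.0 TPM), Utf1 (370.2 TPM) and Sall4 (104.8 TPM), below both for Dppa3 (23.2 TPM), and within the XY range for Dppa5a (7846 TPM). Its Gdf3 level differed by 0.49 from the XY mean and by -0.11 from the XX mean on the log2 scale, and its Dppa2 level by 0.60 and -0.92. Its ratio of Dppa2 to Dppa4, 0.491, was within the XY range, since both genes were raised together. Its summed trophoblast markers were 57.2 TPM and its fibroblast markers 277.4 TPM.

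**Figure D4:**
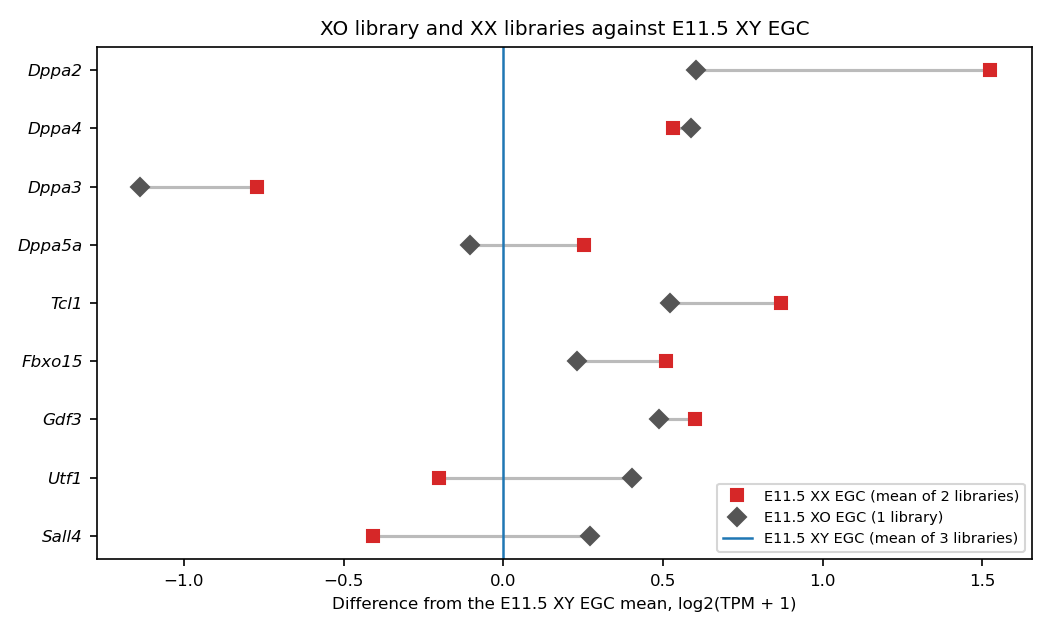
Difference from the E11.5 XY EGC mean in log2(TPM + 1) (horizontal axis; the line at 0 is the XY mean of 3 libraries) of the single XO library (grey diamonds) and of the mean of the 2 XX libraries (red squares). The XO diamond is close to the XX square for Dppa4 and Gdf3 and lies on the other side of 0 for Utf1 (0.40 against -0.20) and Sall4 (0.27 against -0.41).

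Finally, the genes whose levels ran most like each of the 9 were found by Pearson correlation of log2(TPM + 1) over the 15 libraries. The libraries fall into the 6 labels and may not be independent within one, so these values are a description. Dppa2 was most like Ftsj1 (r = 0.985), an X-linked RNA methyltransferase gene, and Rpl10l (0.978), a testis copy of a ribosomal protein gene. Dppa4 was most like Nr0b1 (0.976), the X-linked gene of the nuclear receptor DAX1, and Enox1 (0.975). Dppa3 was most like Krt18 (0.938) and Car4 (0.936), the latter a carbonic anhydrase gene. For the others the closest pairs were B3galnt1 (0.963) and Tmem45a (0.962) for Dppa5a, Jam2 (0.980) and Pigl (0.978) for Tcl1, Klhdc3 (0.955) and Lrfn4 (0.953) for Utf1, Tex19.1 (0.922) and Nlrp4f (0.914) for Fbxo15, Mrps15 (0.950) and Ndufa4 (0.950) for Gdf3, and Stat4 (0.913) and Igsf21 (0.902) for Sall4. Among the 9 themselves the highest value was between Dppa2 and Tcl1 (0.922) and the lowest between Dppa3 and Gdf3 (-0.803), which lie 16.3 kb apart, while the neighbours Dppa2 and Dppa4 had 0.882.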

How the data were processed

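The authors deposited 1 table of TPM values for 15 libraries. The submitters' processing notes name STAR 2.3.0, HTSeq 0.6.0, edgeR 3.8.6, Picard 1.100, SAMtools 0.1.18.0 and the GRCm38 (mm10) build, and their roles are not given in the sources used here. Karyotype and stage come from the table header, in which each label was carried over the empty cells to its right. From the deposited TPM, log2(TPM + 1) was computed, with a pseudocount of 1, and fitted in R 4.3.3 with limma 3.58.1. Its moderated 2-sided test allowed for a trend of variance with mean, and p-values were adjusted by Benjamini-Hochberg over all genes tested, with a threshold of 0.05. EGC against ESC was fitted without covariates to the 12909 genes that reached 1 TPM in 6 or more libraries. All other comparisons came from 1 model of the header labels (9 residual degrees of freedom), fitted to the 13879 genes that reached 1 TPM in 2 or more libraries. The spread is shared by all labels, and the XO library has a mean of its own. Errors on TPM are standard deviations.

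The depth is unknown, so the precision is that of the spread between libraries. No pair of libraries was identical. The 9 genes and the 16 lists (222 entries, 211 in the table) were chosen with earlier results of these data known. Genes were named by a rule: the 9 genes, the 2 with the highest correlation to each (mean of at least 5 TPM, SD of at least 0.2, with 5178 genes eligible), and up to 3 of each list with the smallest p past the threshold. Those described were picked from these after their values were seen. Uhrf1, the flanking genes and the relatives of the 9 were named besides, for position, family or known partnership. Scripts were tested on simulated data with known changes. Alternatives were another pseudocount, no filter, median-ratio and quantile scaling, no trend, a fibroblast covariate, and leaving out each library. Python 3.11.15 and GENCODE M21 were used for tables and positions.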

Additional observations from a re-analysis of the deposited data

Results flagged for a closer look

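Dppa5a was set apart because its XX-XY difference was not the same in the 2 cell types by a test of the change itself. The XX-XY difference in E11.5 EGC minus that in ESC was -0.53 (limma, adjusted p = 0.0215), with XY libraries at 7670.2 to 8867 TPM in E11.5 EGC and at 6129.8 to 6656 TPM in ESC, while the XX libraries were at 9516 to 10613 TPM and 10697 to 11401 TPM. None of the other 8 genes passed that test, Tcl1 coming nearest (-0.31, adjusted p = 0.0536). Over all genes the test called 6.08% higher and 9.51% lower, so a change past the threshold was not rare. Of 14 fibroblast markers, 8 were higher and 1 lower in E11.5 XY EGC than in XY ESC. With their mean as a covariate the Dppa5a change was -0.53 and still passed (adjusted p = 0.0281). How closely that mean follows feeder content is not known, so the part of feeder RNA was not tested. The Dppa5a change was called in 16 of the 21 alternatives run. It was not called with some single libraries left out, with no filter, or with quantile scaling (-0.24, adjusted p = 0.481).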

How the results depend on the processing

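No difference past the threshold changed sign under any alternative that was run, and 15 of the 21 called differences were called under every one. Of 40 other differences, all with an unadjusted p of 0.05 or more and outside the XX-XY comparisons, 16 changed sign under at least 1 alternative, reaching at most 0.259 in size when reversed, and 3 were called under at least 1. Between E11.5 XY EGC and XY ESC the count of 2 genes became 1 with no filter, with quantile scaling or with no trend, and 0 with the fibroblast covariate, and it ranged from 1 to 2 over the libraries left out. Between E11.5 XX EGC and XX ESC the count of 0 became 1 with median-ratio scaling (Gdf3, adjusted p = 0.045) or quantile scaling (Tcl1, 0.0281), and ranged from 0 to 1 over the libraries left out. The test of the change in the XX-XY difference went from 1 gene to 0 with no filter and ranged from 0 to 2 over the libraries left out; with quantile scaling it called Tcl1 (adjusted p = 0.0294) in place of Dppa5a. The Dppa3 difference in ESC passed with median-ratio (adjusted p = 0.0447) and quantile scaling (0.0474). Alternatives for the order of levels were chosen after seeing the data, and gave 4 to 9 called steps in place of 6. The causes of these moves were not tested. No paired analysis was possible because the labels carry no replicate numbers that groups share. With libraries of 1 label treated as correlated (0.75), 0 of the 9 genes differed between EGC and ESC, as before. Labels with 2 or 3 libraries, possibly clones of 1 line, and an unknown depth limit every value.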

Other observations

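Other gene groups were compared between cell types and stages. Of 20 germline genes silenced by promoter methylation, 8 had a lower XX-XY difference in E11.5 EGC than in ESC and 0 a higher one (median change -0.57, beside -0.04 over all genes, of which 9.51% were called lower and 6.08% higher). Of 22 naive pluripotency genes, 4 were higher and 4 lower in E11.5 XY EGC than in XY ESC (median 0.05), beside 12.2% and 13.4% of all genes. At E12.5 against E11.5 in XY EGC, 7 were higher and 5 lower, beside 26.3% and 11.4% of all genes. The median there was 0.03, beside 0.10 over all genes. Among the 22, Klf4 and Klf2 were higher in E11.5 XY EGC than in XY ESC, at 223.1 against 72.6 TPM (adjusted p = 1.74e-05) and 209.6 against 101.3 TPM (adjusted p = 0.000133). Of 14 fibroblast markers 8 were higher and 1 lower in that comparison, and their part was not tested. At E12.5 Klf4 and Klf2 were lower than at E11.5 in XY EGC, at 92.4 and 120.8 TPM (adjusted p = 8.15e-05 and 0.000512). Dnmt3a and Dnmt3b, the de novo DNA methyltransferase genes, moved the other way, from 16.7 and 14.7 TPM at E11.5 to 33.5 and 31.4 TPM at E12.5 (adjusted p = 2.49e-05 and 0.000349).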
